A study of Homo sapiens with 9 samples.

Results

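The 3 libraries described here hold the RNA of SKBR3 cells that received a control siRNA, and they give the gene expression of this line before any target gene is silenced. They were chosen by their label as control samples, 3 of the 9 libraries of the study, and every gene of the table was kept. SKBR3 is an established human breast cancer cell line that carries an amplified ERBB2 (HER2) gene. All cells were grown in DMEM with 10% fetal bovine serum at 37 °C and 5% CO2, and were transfected with 10 nM siRNA using Lipofectamine RNAiMAX for 48 h. The 3 control libraries received the ON-TARGETplus non-targeting siRNA of Horizon Discovery. The other groups, of 3 libraries each, received PVRL4 siRNA 1 or PVRL4 siRNA 2 from Integrated DNA Technologies. No library of untransfected cells was analysed here, so the levels are those of transfected cells, and supplier and target differ together between the control and the PVRL4 siRNAs. Whether the 3 replicates of a group were grown and transfected apart is not stated in the labels. P-values therefore cover only the variation among these libraries, and part of it may be technical.

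Libraries were made from 100 ng of total RNA with the Ion AmpliSeq Transcriptome kit, which amplifies 1 short piece (amplicon) of each gene. The deposited unit is RPM, the reads of a gene scaled to a common library total of 1e6 reads, for 20812 genes. An RPM value is a level at 1 amplicon, with no scaling by gene length, and amplicons can differ in yield, so the order of genes by RPM is the order of their amplicons. The RPM values were whole multiples of what 1 read is worth, which gave library totals of 10477695, 10555367 and 10145423 reads for control replicates 1, 2 and 3. In these libraries 1 read was worth 0.0954, 0.0947 and 0.0986 RPM. A gene with 0 reads in all 3 libraries can lie at up to 0.0962 RPM, which is 3 reads of the summed 31178485. That limit covers counting error only, since the reads carry no molecular identifiers.

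Breast epithelium has an inner luminal layer, marked by simple keratins such as KRT8, KRT18 and KRT19, and an outer basal or myoepithelial layer, marked by KRT5, KRT14 and the transcription factor TP63. ERBB2 is a receptor tyrosine kinase of the EGF receptor family that binds no known ligand itself and signals in pairs with the other family members. In breast tumours with ERBB2 amplification a stretch of chromosome 17 is copied many times, so that neighbours such as GRB7, an adaptor protein, are carried along with ERBB2.

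The 4 genes that mark the line were all high. ERBB2 gave 710.2, 870.8 and 832.2 RPM in control replicates 1, 2 and 3 (804 ± 83.9 RPM, SD, n = 3) and ranked 153 of 20812 genes. GRB7 gave 259.5, 201.7 and 289.5 RPM (250.2 ± 44.6 RPM) and ranked 703. KRT8 gave 1870, 2302 and 1788 RPM (1987 ± 276 RPM) and ranked 46. All 3 libraries held these genes at more than 100 times the median of all genes, which was 1.95 RPM. KRT18, the partner with which KRT8 forms filaments, gave 1068, 1139 and 940.2 RPM (1049 ± 101 RPM) and ranked 111. The gene targeted in the other 6 libraries, PVRL4 (now NECTIN4), encodes an adhesion molecule. It gave 9.93, 7.86 and 11.6 RPM (9.81 ± 1.89 RPM) and ranked 7961, below the median of 26.1 RPM over genes at 1 RPM or more.

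A small number of genes took much of the reads. A mean of at least 1 RPM, called measurable here, was reached by 11112 genes (53.4%). A mean of at least 100 RPM was reached by 2012 genes (9.67%), and 117 genes reached 1000 RPM. Another 3915 genes had reads but a mean under 1 RPM, and together they held 0.0966% of RPM. No read was found in any control library for 5785 genes (27.8%). The 117 genes at 1000 RPM or more held 29.8% of RPM, and the 100 highest held 28.0 ± 0.779% (SD, n = 3). The highest 509 genes held 50% of reads, and 4214 genes held 90%. Of the 100 highest genes of a library, 92 were among the 100 highest in all 3.

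**Figure D1:**
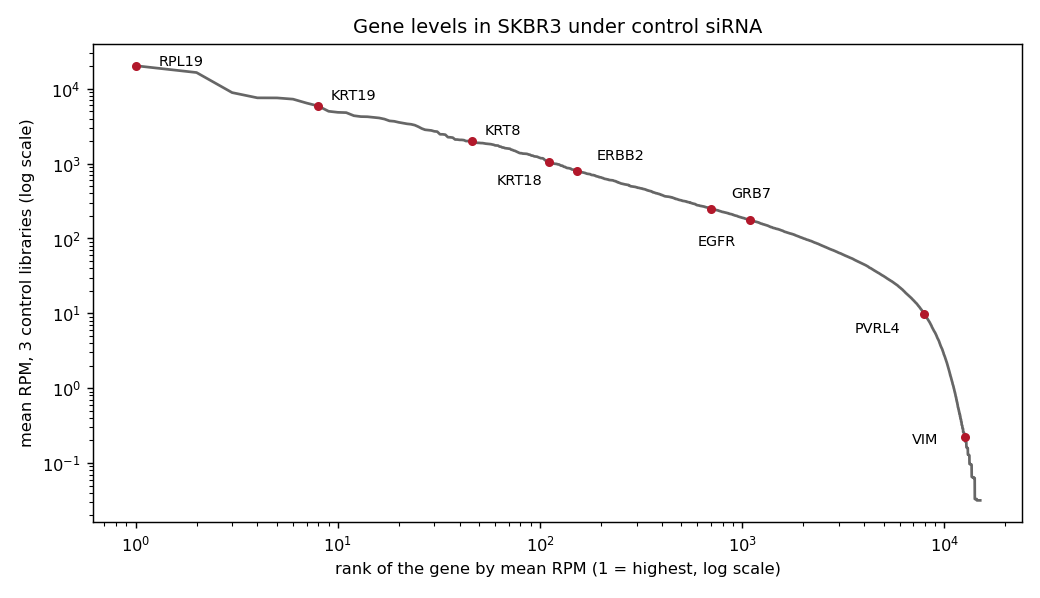
Mean RPM over the 3 control libraries (log scale) against the rank of each gene by that mean (log scale), with genes of 0 reads left out; points mark named genes. RPL19 leads at 20316 RPM, ERBB2 stands at rank 153 and PVRL4 at rank 7961, where the curve has begun to fall steeply.

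The highest genes were those of protein synthesis, the cytoskeleton and glycolysis, with 1 keratin among them. RPL19, a protein of the large ribosomal subunit, was highest in every library, at 20169, 19803 and 20976 RPM (20316 ± 601 RPM), and took 2.03 ± 0.0601% of the reads. GAPDH, an enzyme of glycolysis often used as a reference gene, followed at 18560, 13109 and 17741 RPM. Control replicate 2 lay below the other libraries for GAPDH, and the coefficient of variation (CV, the SD as a percentage of the mean) was 17.8%. ACTB, the cytoplasmic beta-actin, had 8883 ± 213 RPM and a CV of 2.40%. RPL4 at 7563 RPM, RPL7 at 7546 RPM and the elongation factor EEF1A1 at 7264 RPM came next. KRT19, the smallest keratin, ranked 8 with 6016, 5824 and 5793 RPM (5878 ± 121 RPM). PPIA (a prolyl isomerase), PTMA (prothymosin alpha), GNB2L1 (a ribosome-bound scaffold) and ENO1 (enolase) had 5001, 4798, 4365 and 4245 RPM. DHRS2, a short-chain dehydrogenase, ranked 15 with 4555, 3752 and 4141 RPM. RPL15, RPLP2 and P4HB (protein disulfide isomerase) had 3935, 3674 and 3559 RPM.

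Non-coding RNA genes stood among the 20 highest as well. RMRP, the RNA of the ribonuclease MRP, had 3487, 4669 and 4528 RPM. MALAT1, a long nuclear RNA, had 3840, 4498 and 3882 RPM. RPPH1, the RNA of ribonuclease P, had 3470, 3594 and 4107 RPM. The imprinted H19, a long RNA of fetal tissue and some tumours, ranked 24 at 3266 ± 369 RPM. The libraries overlapped in no fixed order for these genes, with replicate 1 lowest for RMRP, MALAT1 and RPPH1 and highest for H19.

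Simple keratins of the luminal layer were far above those of the basal layer. All 4 luminal keratins of the list exceeded 1000 RPM and together held 1.17% of RPM. After KRT19, the highest was KRT7, a keratin of simple ducts, at 2827, 2753 and 2836 RPM (2805 ± 45.5 RPM, CV 1.62%). Outside both lists, KRT80 had 235, 294 and 232 RPM and KRT4 had 253, 217 and 220 RPM, the only other keratins of 55 above 100 RPM; this pair was chosen after its values were seen. Of 14 basal and myoepithelial genes, 6 were measurable, and their median was 0.897 RPM. The highest of them was KRT15 at 37.0, 25.6 and 32.6 RPM. KRT5, the keratin that defines the basal layer, had 1.81, 1.42 and 1.68 RPM, which is 19, 15 and 17 reads. KRT14, its partner, had 1, 0 and 1 reads, and TP63 and CDH3 (P-cadherin) had 0 reads in every library. The summed level of the basal list ran from 37.1 to 47.6 RPM over the libraries, against 11358 to 12018 RPM for the luminal keratins.

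Transcription factors of luminal and secretory epithelium were mostly measurable, 19 of 20, with a median of 65.1 RPM. XBP1, a factor of secretory cells and the unfolded protein response, was highest at 1045, 1279 and 1290 RPM (1205 ± 139 RPM). TFAP2C, an AP-2 factor of luminal cells, had 630.3, 597.3 and 621.1 RPM (616 ± 17.01 RPM). SPDEF, an ETS factor of luminal and goblet cells, had 527.4, 538.3 and 518.1 RPM (528 ± 10.1 RPM). TFAP2C lay above SPDEF in every library, and replicate 1 was lowest for XBP1. TRPS1, a GATA-type repressor used as a breast marker, had 391 ± 29.3 RPM, and CREB3L4 had 182 ± 8.80 RPM. FOXA1, the pioneer factor of luminal cells, had 179.2, 121.7 and 142.8 RPM (148 ± 29.1 RPM). GATA3, which defines the luminal lineage, was lower, at 35.6, 37.3 and 24.8 RPM (32.6 ± 6.77 RPM, rank 4894). TFAP2B was the member under 1 RPM, at 0.672 RPM.

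The steroid receptors that define hormone-responsive breast cancer had no reads. ESR1 and ESR2, the estrogen receptors, and PGR, the progesterone receptor, each had 0 reads in all 3 control libraries. In all, 15 of 20 nuclear hormone receptors were measurable, with a median of 16.0 RPM. RARA, the retinoic acid receptor encoded near ERBB2, was highest at 86.8, 112 and 80.8 RPM (93.2 ± 16.5 RPM). VDR (vitamin D receptor) had 57.7 ± 6.80 RPM, PPARD 45.3 ± 2.09 RPM, NR2F6 40.01 ± 4.18 RPM and PPARG 38.2 ± 3.997 RPM. PPARD and PPARG are receptors for fatty acids, and NR2F6 is an orphan receptor.

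Adhesion genes of epithelium were present apart from E-cadherin. CDH1, which encodes E-cadherin, had 0 reads in all 3 libraries, and it was the only 1 of 23 members of the epithelial adhesion and surface list that was not measurable. The median of the list was 172 RPM. JUP (plakoglobin) had 1102, 1192 and 1105 RPM, and CTNNA1 (alpha-catenin) had 986.9, 979.1 and 969.2 RPM (978 ± 8.85 RPM). Both proteins join cadherins to the cytoskeleton or to desmosomes. CTNNB1 (beta-catenin) had 314 ± 6.21 RPM, whereas CTNND1 (p120-catenin) had 2.17 RPM. SPINT1 and SPINT2, inhibitors of surface proteases, had 937 ± 86.6 and 560 ± 49.7 RPM, and EPCAM, an epithelial adhesion molecule, had 477 ± 13.3 RPM. The mesenchymal list was low by comparison, with 3 of 16 genes measurable, 8 with 0 reads and a median of 0.0315 RPM. S100A4, a calcium-binding protein, was its exception at 419.6, 535.8 and 629.4 RPM. SNAI1 had 2.73 RPM and FN1 (fibronectin) 1.31 RPM. VIM, the mesenchymal filament protein vimentin, had 0.191, 0.284 and 0.197 RPM, or 2, 3 and 2 reads.

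Products of the mammary gland were uneven. Of 18 milk and secretory genes, 10 were measurable and 5 had 0 reads: BTN1A1, CSN1S1, CSN2, CSN3 and LALBA, all components of milk. AGR2, an endoplasmic reticulum protein of secretory cells, was highest at 188.7, 166.2 and 129.8 RPM (162 ± 29.7 RPM). SCGB2A2 (mammaglobin), a small secreted breast protein, had 13.2, 25.2 and 101.6 RPM, so its mean of 46.7 RPM rested largely on replicate 3 (CV 103%). AZGP1, a secreted lipid-mobilising protein, had 20.7, 37.1 and 46.4 RPM, with replicate 1 lowest. LCN2 (lipocalin 2) had 25.6 ± 4.85 RPM. Apocrine epithelium is a breast cell state with active steroid and fatty acid enzymes. Of 10 apocrine enzymes 4 were measurable and 2 reached 100 RPM, the highest, not named here, at 625 RPM. Among the measurable ones were CRAT at 127 ± 16.3 RPM and GGT1 at 19.1 RPM, while ACSM1 and ALOX15B had 0 reads.

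**Figure D2:**
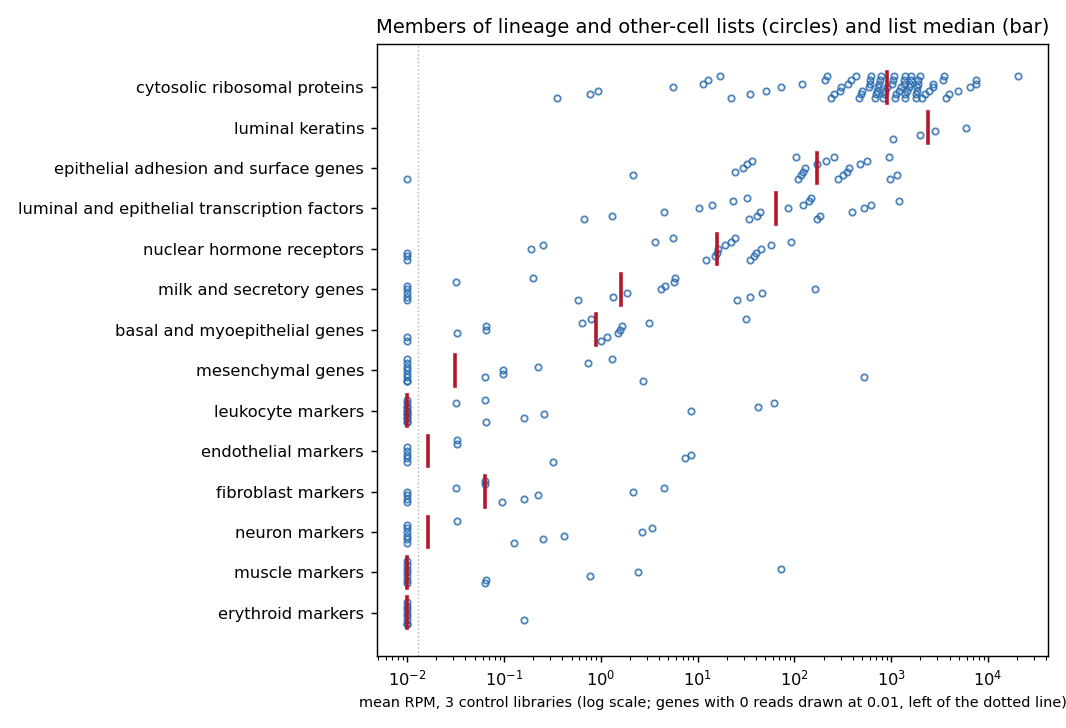
Mean RPM over the 3 control libraries (log scale) of each member of 14 gene lists (circles), with the median of each list as a bar; genes with 0 reads are drawn left of the dotted line. Luminal keratins have a median of 2396 RPM and epithelial adhesion genes 172 RPM, whereas mesenchymal genes and markers of other cell types gather at or near 0.

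Markers of other cell types were at or near 0 with few exceptions. Of 20 leukocyte markers 12 had 0 reads, among them PTPRC, the CD45 antigen of all leukocytes, and 3 were measurable: CD68 at 61.4 RPM, CORO1A at 41.6 RPM and CSF1R at 8.46 RPM. CD68 is a lysosomal protein and CORO1A an actin-binding protein, and epithelial cells can express both. Of 10 endothelial markers 2 were measurable, ESAM at 8.56 RPM and CDH5 at 7.38 RPM, and PECAM1 had 0 reads. Of 12 fibroblast markers 2 were measurable, with COL1A1 highest at 4.50 RPM and DCN at 0 reads. Of 12 muscle markers 2 were measurable, and MB (myoglobin) stood out at 63.4, 71.6 and 80.3 RPM. Among 10 adipocyte markers PNPLA2 and ADIPOR1, which many tissues express, had 248 and 157 RPM, while FABP4 and LEP had 0 reads. None of 9 erythroid markers was measurable, 1 of 12 liver markers was (ALB at 1.73 RPM) and 2 of 12 neuron markers were (SYT1 at 3.34 RPM). The summed level per library was 106 to 122 RPM for leukocyte markers, 13.2 to 18.7 RPM for endothelial markers and 5.73 to 8.43 RPM for fibroblast markers.

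The neighbourhood of ERBB2 held a run of highly expressed genes. ERBB2 lies at 39688094 to 39728658 on chromosome 17 in RefSeq GRCh38, and GRB7 at 39737938 to 39747285. The amplicon positions were not used, since the authors' build was hg19; genes were ordered by their RefSeq places. Of 33 genes listed for 17q12-q21, 24 were measurable, 15 reached 100 RPM and 2 reached 1000 RPM, with a median of 71.7 RPM against 1.95 RPM for all genes. CDK12, a kinase that acts on RNA polymerase II, was highest at 1931, 1487 and 1337 RPM (1585 ± 309 RPM), with replicate 1 above the others. CASC3, a part of the exon junction complex, had 1061 ± 48.4 RPM. MIEN1, which overlaps the end of ERBB2 on the chromosome and encodes a migration-related protein, had 839.5, 894.1 and 882.0 RPM (872 ± 28.7 RPM). MIEN1 and ERBB2 ranked 137 and 153, and their library values overlapped. Where 2 genes overlap in this way, the table separates them by amplicon only.

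The Mediator subunits MED1 and MED24, which link transcription factors to RNA polymerase II, had 637 ± 58.5 and 612 ± 20.8 RPM. TOP2A, the topoisomerase of dividing cells, had 857.1, 656.2 and 775.8 RPM (763 ± 101 RPM), and CDC6, which licenses DNA replication, had 468 ± 82.8 RPM. SMARCE1, a chromatin remodelling subunit, had 621 ± 62.4 RPM, and PSMD3, a proteasome subunit, had 413 ± 66.5 RPM. STARD3, a cholesterol carrier of late endosomes, had 248.2, 312.9 and 253.7 RPM (272 ± 35.9 RPM), and PGAP3, which remodels GPI anchors, had 230 ± 11.5 RPM. Further members between 10 and 200 RPM were WIPF2 (171 RPM), MSL1 (151 RPM), RARA (93.2 RPM), RAPGEFL1 (71.7 RPM), ORMDL3 (62.3 RPM), PPP1R1B (49.9 RPM), TNS4 (45.1 RPM) and NR1D1 (14.9 RPM). PPP1R1B, an inhibitor of protein phosphatase 1, differed most between libraries among them, at 22.7, 41.1 and 85.8 RPM.

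High levels did not extend to every gene of the region. TCAP, a sarcomere protein, and PNMT, the enzyme that makes adrenaline, lie between STARD3 and PGAP3, yet had 5.90 and 0.514 RPM. Beyond GRB7, IKZF3, a lymphocyte transcription factor, had 2.05 RPM. GSDMB and GSDMA, pore-forming gasdermins, had 0.288 and 0.222 RPM, and THRA, a thyroid hormone receptor, had 3.62 RPM. CCR7 had 0.258 RPM, IGFBP4 0.0963 RPM and GJD3 0.0633 RPM, each a few reads at most. ZPBP2, LRRC3C and CSF3 had 0 reads in all 3 libraries. The number of DNA copies was not measured in these libraries.

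**Figure D3:**
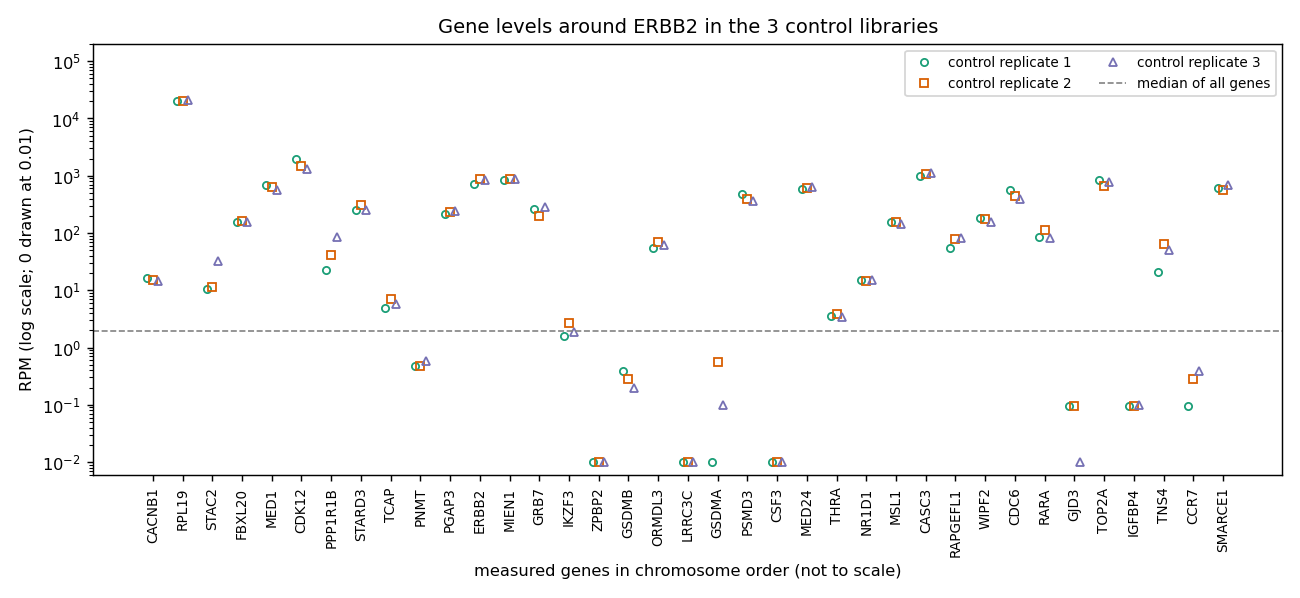
RPM of each control library (symbols; log scale, with 0 drawn at 0.01) for measured genes in chromosome order around ERBB2, not to scale, with the median of all genes (1.95 RPM) as a dashed line. Genes from RPL19 to GRB7 are mostly above 100 RPM, broken by STAC2 at 18.1 RPM, PPP1R1B at 49.9 RPM, TCAP at 5.90 RPM and PNMT at 0.514 RPM; the symbols of STAC2, PPP1R1B and TNS4 lie apart from each other.

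Over the whole genome, levels were smoothed as the median of 15 neighbouring measured genes, in 19069 overlapping windows. The highest of all windows lay on chromosome 17, with ERBB2 inside it and GRB7 at its end. Its median was 229.8 RPM and 9 of its 15 genes reached 100 RPM. The median over all windows was 3.41 RPM, the 95th percentile was 32.3 RPM, and 27 windows reached 100 RPM. RPL19, the highest gene of the table, lies in this window, 10 measured genes before ERBB2. With 11 genes in a window the best of those holding ERBB2 ranked 4 (250 RPM), and with 25 genes it ranked 25 (71.7 RPM). The window centred on ERBB2 itself ranked 155 at 62.3 RPM, since it includes silent genes beyond GRB7. The next highest places that do not overlap it were chr1:153658654-154192100 (182 RPM), with ILF2 (an RNA-binding protein), SLC39A1 (a zinc importer) and TPM3 (a tropomyosin) among its genes, and chr5:179614178-180578358 (119 RPM), with CANX and SQSTM1. Chromosome 17 as a whole held 6.03% of the positioned genes and 10.4 ± 0.0864% of RPM (SD, n = 3), a ratio of 1.73 that was the highest of all chromosomes. Chromosomes 12, 7 and 8 followed with 1.43, 1.33 and 1.28. Without RPL19 the ratio of chromosome 17 was 1.41, below the 1.43 of chromosome 12 with all its genes. Chromosome 12 itself had 1.13 without GAPDH, so with the highest gene of each left out chromosome 17 was above chromosome 12.

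The long arms of chromosomes 8 and 20 are other places often gained in breast tumours. Of 20 genes listed for 8q23-q24, 16 were measurable, with a median of 61.9 RPM. RAD21, a cohesin subunit, had 1897, 1818 and 1742 RPM, and EIF3H, a translation initiation factor, had 1238, 1288 and 1354 RPM. NDRG1 and DERL1, genes of stress response and protein degradation, had 404 and 401 RPM. MYC, the growth transcription factor, had 82.7, 178 and 118 RPM (126 ± 48.0 RPM), with replicate 2 more than 2 times replicate 1. HAS2 had 0 reads. Of 20 genes listed for 20q13, 18 were measurable, with a median of 90.5 RPM. BCAS1 had 473.5, 642.6 and 499.7 RPM, TMEM189 had 325 RPM, CSE1L, a nuclear export factor, had 250 RPM, DPM1 had 213 RPM and NCOA3, a coactivator of nuclear receptors, had 187 ± 7.66 RPM. PCK1, an enzyme of glucose synthesis, had 0 reads.

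Among receptor tyrosine kinases ERBB2 was far above the rest. Of 43 measured receptors 22 were measurable and 12 had 0 reads, and the median was 1.08 RPM. DDR1, a collagen receptor, came next at 370.0, 355.3 and 364.7 RPM, below every ERBB2 value. EGFR had 160.5, 164.2 and 201.5 RPM (175 ± 22.7 RPM, rank 1093) and ERBB3 had 135.2, 147.1 and 176.3 RPM (153 ± 21.1 RPM, rank 1288). EGFR was above ERBB3 in each library, and replicate 3 was highest for both. EPHB6, an ephrin receptor with an inactive kinase domain, had 125 ± 10.7 RPM, and ERBB4 had 1.248 ± 0.234 RPM. The ligands of the family were low: 4 of 10 were measurable. EGF had 14.0, 14.0 and 17.3 RPM, NRG2 9.80 RPM, HBEGF 3.46 RPM and BTC 2.53 RPM, while NRG1, NRG3, NRG4 and TGFA had 0 reads.

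Downstream of the receptors nearly every gene was measurable, 36 of 37 adaptors and RAS, MAPK and PI3K pathway genes, with a median of 54.95 RPM. RHEB, the GTPase that activates mTOR, had 357 ± 7.07 RPM. GRB7, at 250.2 ± 44.6 RPM, and the phosphatase PTPN11, at 246 ± 6.74 RPM, had no common order over the libraries, since GRB7 was below PTPN11 in replicate 2 and above it in the others. The adaptors GRB2 and SHC1 had 216 ± 20.9 and 163 ± 7.29 RPM. AP-1 genes encode the FOS, JUN, ATF and BATF proteins, which bind DNA in pairs; the title of the study names the FOS family. They were low to moderate, with 7 of 12 measurable. BATF had 52.5 RPM, JUND 26.7 RPM, JUNB 23.5 RPM, FOSL2 20.3 RPM and ATF2 17.02 RPM, whereas FOSL1 and BATF3 had 0 reads. FOS had 1.34, 1.42 and 0.591 RPM, FOSB had 0.576 RPM and JUN had 0.0317 RPM. All 18 antigens of antibody-drug conjugates on the list had reads and 14 were measurable. ERBB2 was the highest of 4 antigens at 100 RPM or more. MUC1, below these 4, had 36.2 RPM, against 9.81 RPM for PVRL4.

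Genes that every cell uses made up much of the RNA, but some of them were nearly unread. The 77 cytosolic ribosomal protein genes held 12.4% of RPM, with a median of 905 RPM. They ranged from RPL19 at 20316 RPM to RPS24 at 0.351 RPM, although ribosomes carry 1 copy of nearly every one of these proteins. RPS24 had 5, 4 and 2 reads, RPL31 8, 5 and 11 reads and RPL17 13, 8 and 8 reads. Beyond the ribosome, the chaperone subunit NACA had 2, 0 and 2 reads, MYL6 (a myosin light chain) 5, 1 and 5 reads, and PKM (pyruvate kinase) 20, 30 and 11 reads. These are few reads for genes that dividing cells in general are known to express, so a level at or near 0 is given throughout as that of 1 amplicon.

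Of 39 translation factors 38 were measurable (3.86% of RPM), as were 73 of 76 oxidative phosphorylation subunits (2.12%), 17 of 25 glycolysis genes (2.59%), 21 of 25 cytoskeleton genes (2.41%) and all 27 chaperones (2.18%). SLC2A1, the main glucose importer of many tumour cells, had 1495 ± 61.3 RPM. CALR and HSP90B1, chaperones of the endoplasmic reticulum, had 2099 and 2075 RPM. Lipid synthesis was represented by 31 measurable genes of 35. FASN, the fatty acid synthase, had 1255, 1376 and 1087 RPM (1240 ± 145 RPM). SCD, a desaturase, had 961 ± 70.6 RPM, CYP51A1, an enzyme of cholesterol synthesis, 730 ± 108 RPM, and ACLY, which supplies acetyl-CoA, 674 ± 47.6 RPM. SCD5 had 0 reads.

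Cell cycle genes were those of dividing cells, with 38 of 40 measurable. After TOP2A came RRM2 at 346 RPM, CDK1 at 313 RPM and CCND1 at 262.1, 376.7 and 233.0 RPM. CDKN2A, an inhibitor of cyclin-dependent kinases, had 0, 0 and 1 reads. MHC genes were uneven, with 7 of 20 measurable: B2M, the light chain of class I, had 476.5, 579.2 and 542.4 RPM and HLA-E had 189 ± 4.85 RPM. HLA-B had 0.323 RPM and HLA-C 0.258 RPM. Cancer-testis genes, normally confined to germ cells, had 5 measurable members of 21. MAGEA3 had 43.4, 47.6 and 52.5 RPM and MAGEA6 42.3, 47.4 and 45.7 RPM, and the near-identical sequences of this pair make their separation uncertain.

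Several gene families were largely without reads. Of 382 olfactory receptor genes 310 (81.2%) had 0 reads, and 4 were measurable, the highest OR2A4 at 5.06 RPM. Of 84 keratin-associated protein genes, which build hair, 70 (83.3%) had 0 reads, and of 32 beta-defensins, antimicrobial peptides, 30 (93.8%) had 0 reads. The share over all genes was 27.8%, and the 10 families examined held 617 of the 5785 genes with 0 reads. None of 24 bitter taste receptors was measurable, though only 7 had 0 reads, the rest lying up to 0.701 RPM. At the other end, 56 of 66 replication-dependent histone genes were measurable (median 90.9 RPM), as were 43 of 46 proteasome subunits (median 115 RPM) and 66 of 76 small nucleolar RNA genes. SNORA63 was the highest of the latter at 1879 ± 440 RPM. Of 523 ZNF zinc finger genes 343 were measurable, ZNF704 being highest at 603 ± 29.8 RPM, and of 382 solute carriers 198 were.

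A gene without reads in the control libraries was not always silent in the study. Of the 5785 genes, 4489 had 0 reads in all 9 libraries and 1296 had a read in some PVRL4 siRNA library. In 10 of them the mean with siRNA 1 reached 1 RPM, and in 0 with siRNA 2. The 10 were IFI44, IFI44L, IL29, RSAD2, IFIT3, HERC5, IL28A, IL28B, SAMD9L and IFI16, most of them interferon-stimulated genes and 3 of them type III interferons. IFI44 had 66.5, 5.81 and 30.2 RPM with siRNA 1, against 0 reads in each control library, at least 355-fold higher than the limit of 3 reads over the group. IFI44L had 34.0, 2.91 and 14.0 RPM, at least 176-fold higher. In both, replicate 2 of siRNA 1 was lowest by a wide margin. The other genes had lower means with siRNA 1, from 1.67 to 9.63 RPM, and only 0.290 to 0.871 RPM in its replicate 2. These genes were picked out by their values, so no test is given.

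The 3 control libraries agreed closely over the table but differed by more than counting noise. Pearson's r of log2(RPM + 1) across all genes was 0.996 for each pair, a description across genes, which are not independent. Over genes averaging 10 reads or more, the chi-square per degree of freedom of the pairs was 10.0 to 12.7, where counting noise alone gives about 1. Among the 3686 genes averaging 50 RPM or more the median CV was 8.11%. A CV under 5% was found for 849 of them and a CV over 30% for 24 (0.651%). The median CV fell with level, from 86.7% for genes under 1 RPM to 20.6% at 1 to 10 RPM, 10.4% at 10 to 100 RPM, 7.66% at 100 to 1000 RPM and 7.13% above. Against counting noise the order was the reverse, with a median chi-square per degree of freedom of 0.988 in the lowest class and 95.5 in the highest. Replicate 3 was the lowest library for 1523 of the 3686 genes and the highest for 893.

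**Figure D4:**
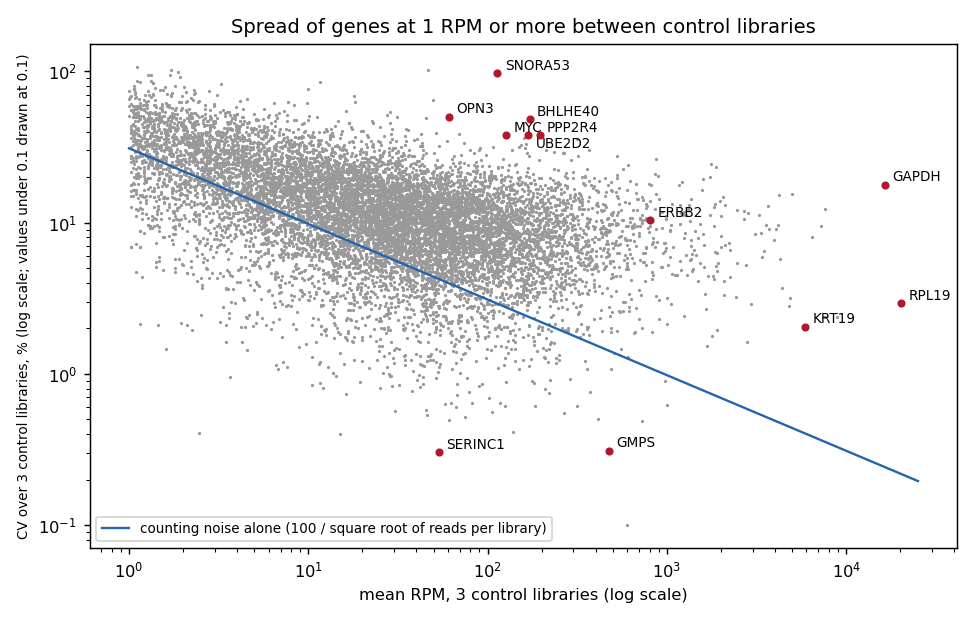
CV over the 3 control libraries (%, log scale) against mean RPM (log scale) for genes of at least 1 RPM, with the line that counting noise alone would give. Of genes at 1 to 10 RPM 66.2% lie above the line, and of genes at 100 to 1000 RPM 94.1%, while GMPS and SERINC1 lie below it; SNORA53 stands highest among the marked genes, with a CV of 96.9%.

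The 10 genes with the largest CV at 50 RPM or more were SNORA53, OPN3, BHLHE40, LENG8, DUSP4, UBE2D2, PPP2R4, MYC, SNORA64 and MAT2A. SNORA53, a small nucleolar RNA, had 234.6, 21.6 and 83.2 RPM, a spread of more than 10 times. BHLHE40, a transcription factor of the clock and hypoxia, had 100.8, 262.9 and 150.0 RPM. DUSP4, a phosphatase that dampens MAP kinases, had 50.8, 99.5 and 57.1 RPM, and MAT2A, which makes the methyl donor S-adenosylmethionine, had 227.6, 442.0 and 274.0 RPM. Replicate 2 was highest for BHLHE40, DUSP4, MYC, MAT2A, OPN3 and LENG8. The same replicate number was highest in the control, siRNA 1 and siRNA 2 groups for 7 of the 10 genes. SNORA53 had 376.0, 23.4 and 57.1 RPM with siRNA 1 and 372.7, 24.2 and 59.3 RPM with siRNA 2, so replicate 1 was highest and replicate 2 lowest in every group. MYC had 116.0, 170.8 and 123.2 RPM with siRNA 1 and 128.6, 182.7 and 116.2 RPM with siRNA 2, replicate 2 being highest throughout. The correlation of deviations from the group means was 0.252 to 0.417 for the 9 pairs of libraries with the same number, and -0.340 to -0.0275 for the others. Deviations cancel within a group, so positive values for shared numbers bring negative values for the others, which add nothing further.

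UBE2D2, a ubiquitin-conjugating enzyme, and PPP2R4, an activator of protein phosphatase 2A, were set apart by control replicate 2. UBE2D2 had 217.3, 95.7 and 193.5 RPM and PPP2R4 had 249.0, 110.3 and 225.0 RPM, so that both were low in control replicate 2 alone. For UBE2D2 replicate 1 was highest in control and replicate 3 in both siRNA groups. PPP2R4 kept replicate 1 highest and replicate 2 lowest in every group. Its range outside control was narrower, 226.3 to 235.6 RPM with siRNA 1 and 217.9 to 248.2 RPM with siRNA 2. The smallest spread was that of PARP1, a DNA repair enzyme, at 600.9, 601.0 and 601.0 RPM (CV 0.0104%). SERINC1, GMPS, ANXA5, SERINC2, ZNF252P, RSL1D1, NMRAL1, XRCC5 and TMA7 followed, with CVs of 0.305% to 0.559%. With 3 libraries and 3686 genes, the ends of this order hold genes chosen for their values, and no test is given.

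Promoters of measurable genes held more CG pairs than those of genes with 0 reads. RefSeq GRCh38.p14 gives a promoter of 300 bases, 250 before and 50 after the start, for 14950 genes of the table, with 1 start per gene, and other starts were not searched. CG pairs are the sites of DNA methylation, and promoters rich in them are usual at broadly expressed genes. The median number of CG pairs in the window was 7 for genes with 0 reads, 16 for genes under 1 RPM and 24 at 1 to 10 RPM. It was 27 at 10 to 100 RPM, 28 at 100 to 1000 RPM and 25 at 1000 RPM or more, against 22 over all. Olfactory receptors had a median of 1 pair and ribosomal protein genes 24. Values for classes are given as a description, with no test, since neighbouring and duplicated genes share sequence.

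**Figure D5:**
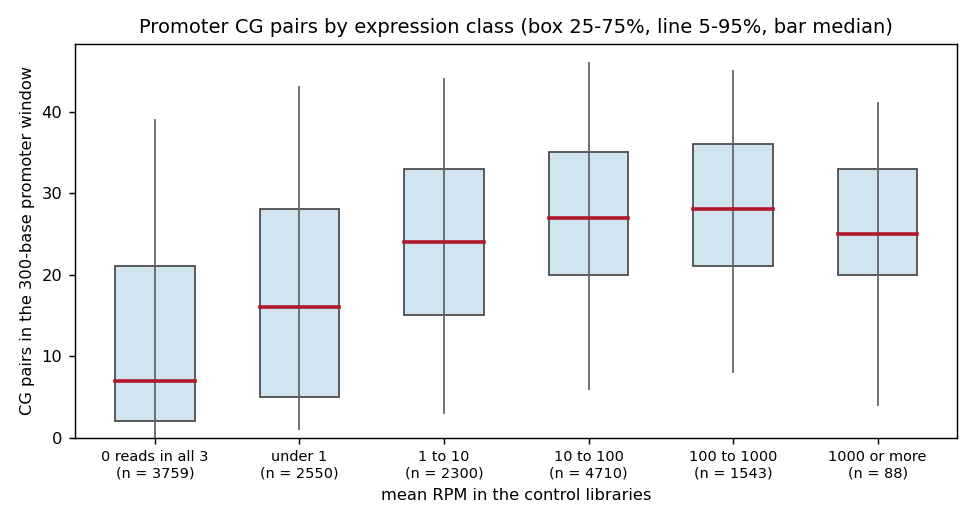
Number of CG pairs in the 300-base promoter window by class of mean RPM in the control libraries (bar, median; box, 25th to 75th percentile; line, 5th to 95th percentile; n, genes with a promoter). The median rises from 7 in genes with 0 reads to 28 in genes of 100 to 1000 RPM and is 25 in the highest class.

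Motifs were searched as plain letters. TATAAA, the TATA box, was sought on the sense strand 45 to 11 bases before the start, and was found in 6.73% of promoters of genes with 0 reads, 0.955% of those at 10 to 100 RPM and 11.4% of those at 1000 RPM or more, against 3.54% of all promoters. GGGCGG, a GC box, was sought on both strands and found in 34.8% of promoters of genes with 0 reads and 74.1% of those at 100 to 1000 RPM (59.0% of all). CCGGAAG, the core bound by ETS factors, was found on either strand in 3.91% and 23.1% of the same classes and in 26.1% of the highest class (14.4% of all). CCAAT on either strand differed less, from 33.6% to 40.6% over the classes (36.5% of all). Keratin-associated protein genes had TATAAA in 46.5% of 71 promoters.

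The promoters of RPL19, the highest gene, of ERBB2 and KRT8, which mark the line, and of CSN2, a casein gene with 0 reads, show the range; CSN2 was chosen after its values were seen. They are printed 5′ to 3′ from RefSeq GRCh38.p14 with CG pairs in capitals, 14 in RPL19 (chr17:39200033-39200332, plus strand), 24 in ERBB2 (chr17:39687844-39688143, plus strand), 2 in KRT8 (chr12:52926420-52926719, minus strand) and 2 in CSN2 (chr4:69965679-69965978, minus strand). The CSN2 promoter holds TATAAA in the searched bases and the other 3 do not, while RPL19, ERBB2 and KRT8 hold CCGGAAG on 1 strand or the other. KRT8, at 1987 RPM, has as few CG pairs at this annotated start as CSN2, at 0 reads. The RefSeq span of KRT8 is 52897191 to 52949860, so the start shown lies inside the gene and not at its 5′ end. Which start gives the KRT8 reads was not tested.
RPL19: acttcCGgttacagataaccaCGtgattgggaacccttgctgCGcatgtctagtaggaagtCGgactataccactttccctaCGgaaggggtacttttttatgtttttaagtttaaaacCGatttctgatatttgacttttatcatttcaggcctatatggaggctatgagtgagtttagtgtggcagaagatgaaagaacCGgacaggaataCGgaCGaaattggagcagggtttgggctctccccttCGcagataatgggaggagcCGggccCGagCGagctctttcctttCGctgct
ERBB2: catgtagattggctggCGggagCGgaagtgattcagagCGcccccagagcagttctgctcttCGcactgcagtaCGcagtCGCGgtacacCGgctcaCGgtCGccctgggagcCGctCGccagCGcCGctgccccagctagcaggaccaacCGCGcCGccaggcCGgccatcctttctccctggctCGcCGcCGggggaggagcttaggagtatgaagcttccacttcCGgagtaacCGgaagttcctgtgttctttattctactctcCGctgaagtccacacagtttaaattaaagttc
KRT8: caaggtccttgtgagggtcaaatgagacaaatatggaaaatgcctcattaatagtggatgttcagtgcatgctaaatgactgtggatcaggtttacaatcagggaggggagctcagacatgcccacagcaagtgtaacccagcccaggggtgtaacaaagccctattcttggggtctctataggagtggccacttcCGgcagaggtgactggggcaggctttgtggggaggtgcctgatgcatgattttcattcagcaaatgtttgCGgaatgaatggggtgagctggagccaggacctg
CSN2: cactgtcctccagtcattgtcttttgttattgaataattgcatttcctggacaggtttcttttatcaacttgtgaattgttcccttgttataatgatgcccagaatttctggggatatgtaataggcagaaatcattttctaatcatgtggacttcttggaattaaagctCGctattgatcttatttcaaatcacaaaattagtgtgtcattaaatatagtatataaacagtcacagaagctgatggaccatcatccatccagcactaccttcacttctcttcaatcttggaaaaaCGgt

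To see how far the baseline stands when PVRL4 is silenced, the control libraries were compared with each PVRL4 siRNA group by limma on log2(RPM + 1), over the 11158 genes whose mean over the 9 libraries reached 1 RPM. A call means an adjusted p under 0.05 (limma, Benjamini-Hochberg, two-sided). Both comparisons share the 3 control libraries. With siRNA 1, 0.851% of all tested genes were called (71 higher, 0.636%, and 24 lower, 0.215%). With siRNA 2 the share was 0.681% (4 higher, 0.0358%, and 72 lower, 0.645%). The 34 lists held 554 tested genes, of which 5 were called with siRNA 1 (3 higher, 2 lower) and 5 with siRNA 2 (all lower), which is 0.903% each and near the share of all genes. With the replicate number as a block 1.85% of all tested genes were called with siRNA 1 (1.17% higher, 0.681% lower) and 3.41% with siRNA 2 (0.457% higher, 2.95% lower). The calls in the lists were then 10 and 30 of 554, the latter being 3 higher and 27 lower. With the block the 10 were near the share of all genes, whereas the 30 were above it. Since the lists were written with earlier results of these data known, these counts are a description and no test of the lists.

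ERBB2, GRB7, KRT8 and KRT18 were not called without a block. ERBB2 had 843 ± 105 RPM with siRNA 1 and 665 ± 101 RPM with siRNA 2, against 804 ± 83.9 RPM in control, log2 differences of 0.06 (limma adjusted p = 1.00) and -0.28 (limma adjusted p = 0.527). GRB7 gave log2 differences of -0.01 and -0.19 (limma adjusted p = 1.00 and 0.774), KRT8 0.06 and -0.38 (1.00 and 0.250) and KRT18 0.07 and -0.17 (1.00 and 0.736). With the replicate block KRT8 was called lower with siRNA 2 (limma adjusted p = 0.0155), and the other 3 were not called with either siRNA. Of the 24 tested genes of the 17q12-q21 list, limma called 0 with either siRNA. At an unadjusted p under 0.05 there were 1 lower with siRNA 1 and 2 lower with siRNA 2, against 6.04% and 9.42% of all tested genes in either direction, and edgeR on the recovered reads called 0 in each. Of the 100 highest control genes limma called 0 with siRNA 1, with 1 higher and 4 lower at an unadjusted p under 0.05. With siRNA 2 it called 1 of them, HSP90B1 (lower), with 1 higher and 9 lower at an unadjusted p under 0.05. The 100 genes were picked for high values in the same control libraries, which favours lower over higher. The direction of these counts is therefore not read as a result.

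Of the named targets, PVRL4 fell with siRNA 2, to 2.96 ± 0.411 RPM from 9.81 ± 1.89 RPM (log2 difference -1.44, limma adjusted p = 0.00224). With siRNA 1 it had 5.01 ± 0.866 RPM and missed the threshold (log2 difference -0.84, limma adjusted p = 0.0601), which it passed with the replicate block (0.0132). PPARD was lower with siRNA 1, at 25.5 ± 3.89 RPM against 45.3 ± 2.09 RPM (log2 difference -0.81, limma adjusted p = 0.00470). NCOA3 was lower with siRNA 2, at 96.0 ± 15.8 RPM against 187 ± 7.66 RPM (-0.96, limma adjusted p = 0.000906), as was HSP90B1, at 1212 ± 165 RPM against 2075 ± 69.4 RPM (-0.78, limma adjusted p = 0.00245). PVRL4 and these 3 genes kept their calls under every setting run. GRHL1, a grainyhead factor of epithelium, was lower with siRNA 2 at 90.1 ± 9.86 RPM against 141 ± 4.51 RPM (-0.64, limma adjusted p = 0.0171), a call lost without control replicate 1, 2 or 3 (adjusted p = 0.0665, 0.0798 and 0.0846) and without siRNA 2 replicate 1 (0.0671).

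With the replicate block no list member lost its call, and 5 gained one with siRNA 1 and 25 with siRNA 2, of which 22 were lower. All 5 and 17 of the 25 were also called by edgeR with the block. These genes were chosen for that change in call. Among the 19 tested luminal and epithelial transcription factors, 6 were then called lower with siRNA 2, against 2.95% of all tested genes: GRHL1, EHF, ELF5, GATA3, TBX3 and TFAP2A. The lists were written with earlier results of these data known, and this list is 1 picked from 34. The count is therefore a description and no test of the list. By edgeR with the block ELF5 (adjusted p = 0.0704) and TFAP2A (0.0766) were not called. GATA3 had 22.7 ± 5.83 RPM with siRNA 2 against 32.6 ± 6.77 RPM in control (log2 difference -0.51, limma adjusted p = 0.0216 with the block and 0.351 without). AGR2 (-0.45, limma adjusted p = 0.00519 with the block and 0.274 without) and FASN (-0.49, 0.00776 with and 0.0891 without) were also lower. S100A4 of the mesenchymal list was called higher with siRNA 2 (0.57, limma adjusted p = 0.00142 with the block and 0.341 without). With siRNA 1 the 5 were PVRL4, ACLY and PPARA (lower) and HLA-E and NLRC5 (higher).

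NDUFB11, a subunit of respiratory complex I, was lower with siRNA 1 at 134 ± 5.02 RPM against 195 ± 13.4 RPM (log2 difference -0.54, limma adjusted p = 0.0125). Its call was lost without control replicate 1 (adjusted p = 0.108), control replicate 2 (0.0558) or siRNA 1 replicate 1 (0.0662). B2M was higher with siRNA 1 at 928 ± 245 RPM against 533 ± 52.0 RPM (0.77, limma adjusted p = 0.0246), and that call was lost without control replicate 1, 2 or 3 (0.162, 0.0563 and 0.0989), siRNA 1 replicate 1 (0.0635) or siRNA 1 replicate 3 (0.0732), and with no filter on low values (0.108). TAP1, the peptide transporter of MHC class I (157 ± 104 RPM against 47.5 ± 5.84 RPM, limma adjusted p = 0.0378), ZNFX1 (194 ± 109 RPM against 74.1 ± 6.82 RPM, limma adjusted p = 0.0465) and, with siRNA 2, MDM2 (98.0 ± 7.32 RPM against 141 ± 12.7 RPM, limma adjusted p = 0.0343) were also called. Leaving out any 1 control library ended each of these 3 calls, with adjusted p of 0.107 to 0.170 for TAP1, 0.126 to 0.226 for ZNFX1 and 0.0763 to 0.169 for MDM2. TAP1 was also lost without siRNA 1 replicate 3 (0.0800), siRNA 2 replicate 2 (0.0642) or siRNA 2 replicate 3 (0.0527), with no filter (0.171) and with a pseudocount of 5 (0.0554). ZNFX1 was also lost without siRNA 1 replicate 3 (0.0645) or any 1 siRNA 2 library (0.0509, 0.0629 and 0.0655 for replicates 1, 2 and 3), with no filter (0.199), a filter at 5 RPM (0.0565) or a pseudocount of 5 (0.0652). MDM2 was also lost without any 1 siRNA 2 library (0.0963, 0.0507 and 0.104) or siRNA 1 replicate 2 or 3 (0.0532 and 0.0561), and with edgeR (adjusted p = 0.0569), no filter (0.0641) or median-of-ratios scaling (0.0544). With the replicate block NDUFB11, B2M, TAP1, ZNFX1 and MDM2 all kept their calls (limma adjusted p = 0.00183, 0.00436, 0.00144, 0.00863 and 0.00344).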

How the data were processed

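RNA of 9 SKBR3 libraries (3 control, 3 PVRL4 siRNA 1, 3 PVRL4 siRNA 2) was measured by amplicon sequencing. The authors deposited RPM values (read counts per gene brought to a common total of 1e6 in each library), for 20812 genes; per the submitters' processing notes they used hg19, while aligner and counter are not given in the sources used here. Groups and replicate numbers come from the sample titles. From the RPM steps, whole reads were recovered; in each library 100% of the 12741 to 12995 values under 2000 reads were whole (tolerance 0.1 read), though a second search did not find the step in siRNA 2 replicate 1, with 10017130 to 10707777 reads per library. Depth sets the precision of low genes: 3 reads are 0.284 to 0.296 RPM in a control library. Pairs of control libraries differed by more than counting noise and were kept as 3 samples.

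Computed here were means, SDs, CVs and ranks over the 3 control libraries (Python 3.11.15, pandas 2.3.3, numpy 2.4.6, matplotlib 3.10.9), medians of 15 neighbouring genes, and CG pairs and motifs in RefSeq promoters. Gene positions and current symbols come from RefSeq GRCh38.p14, to which 19405 genes were matched; no coordinates were converted. The control group was compared with each PVRL4 siRNA group by limma 3.58.1 (R 4.3.3) with a trended prior variance on log2(RPM + 1), for genes averaging 1 RPM or more over all 9 libraries. The 3 groups shared 1 spread, tests were two-sided, and a Benjamini-Hochberg adjusted p under 0.05 was a call. Both comparisons use the same 3 control libraries. The fit was tested on simulated reads with the same extra spread for every gene and no replicate effect. That test therefore does not cover the shared deviations of same-numbered libraries. Alternatives were pseudocounts of 0.1 and 5, a filter at 5 RPM or none, median-of-ratios and TMM scaling, a replicate block, each library left out, other window sizes and classes and, chosen after seeing the data, edgeR 4.0.16 on the recovered reads and chromosome shares without their highest gene.

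The replicate numbers of the titles were checked as pairs. For each of the 9 pairs of libraries that share a number, deviations from their group means had a correlation of 0.252 to 0.417. By these deviations the numbers pair the samples, but what a shared number stands for was not tested. The main fit left this pairing out, and the fits with the replicate block used it.

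The 34 lists (813 entries, 800 measured) and 10 families were written from textbook knowledge, and members and lists were chosen with earlier results of these data known. Genes named are ERBB2, GRB7, KRT8, KRT18 and PVRL4, the 20 highest, up to 5 highest and 4 unread members of each list described with a fixed set of textbook genes, every gene of the 17q12-q21 list, the 10 largest and 10 smallest CVs at 50 RPM or more, genes of the highest windows, and up to 3 called list members per contrast; a few others, such as H19, CSN2, MB and the genes of universal use with few reads, were chosen after their values were seen. A few genes the rule would name are not reported here.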

Additional observations from a re-analysis of the deposited data

How the results depend on the processing

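Mean levels of 11 genes in the control libraries moved by less than 1 SD under both other scalings (22 values). Scaling factors of the control libraries were 0.961 to 1.016 by median of ratios and 0.965 to 1.020 by TMM. A mean over 3 libraries could therefore hardly move, and no robustness is read from these values. Counts of calls depended on the fit. With siRNA 1, limma called 95 genes (71 higher, 24 lower), 206 with the replicate block, 219 by edgeR with the replicate block and 57 with no filter, and 46 to 137 with 1 library left out. With siRNA 2 the count was 76 (4 higher, 72 lower), 380 with the replicate block, 320 by edgeR with the replicate block and 29 with no filter, and 18 to 70 with 1 library left out. The lowest counts of both came without control replicate 1. With the block no list member lost its call, and 5 (siRNA 1) and 25 (siRNA 2) gained one, of which 5 and 17 were also called by edgeR with the block. The median CV of 8.11% became 8.38% with median-of-ratios scaling and 6.64% to 6.70% with 1 control library left out; 2 libraries then give each CV. The median of 7 CG pairs in promoters of unread genes became 8 for genes under 0.1 RPM. The highest window holding ERBB2 ranked 1 in the main setting (229.8 RPM). It ranked 4 with 11 genes (250.2 RPM) and 25 with 25 genes (71.7 RPM). With 1 control library left out it ranked 1, at 225 to 236 RPM. The cause of these shifts was not tested. The other 29 planned or added values of main results stayed within their limits. Depth limits genes under about 0.3 RPM, and 1 amplicon per gene limits any order between genes.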

Other observations

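Genes averaging 50 RPM or more over all 9 libraries were scanned for values in 1 library that lay at least 1.5-fold outside all 8 others, a scan chosen after seeing the data. Of 3677 genes, control replicate 2 gave 2: PPP2R4 at 110 RPM against 218 to 249 RPM elsewhere, and UBE2D2 at 95.7 RPM against 193 to 245 RPM. Control replicate 1 gave 1, IFIT1, whose values in the other libraries were themselves spread too widely to set it against, and control replicate 3 gave none of the 3677. PPP2R4 (PTPA in current annotation) lies on chromosome 9 and UBE2D2 on chromosome 5. The scan found 21 higher genes in replicate 1 of siRNA 1, and 17 higher and 7 lower in replicate 3 of siRNA 2.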
